A study of Mus musculus with 10 samples.

Results

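Heat shock chaperones of the cytosol and the mitochondrion were followed in livers of HFD-fed mice by 10 genes, chosen by name in the deposited expression table of 54532 genes. They were the cytosolic HSP70 genes Hspa8, Hspa1a and Hspa1b, the HSP110 gene Hsph1, the HSP90 gene Hsp90aa1, the cochaperone genes Dnajb1 and Bag3, the small heat shock protein gene Hspb1, and the mitochondrial chaperonin genes Hspd1 (HSP60) and Hspe1 (HSP10). Expression was measured by bulk RNA sequencing, 1 library per liver, in 5 ASK1f/f and 5 ASK1+hep mice (C57BL/6J background) after 7 weeks of HFD, which began at 6 weeks of age. Both groups carried the same construct, murine ASK1 cDNA in the ROSA26 locus behind a lox-stop-lox cassette. ASK1+hep mice in addition carried Alb-Cre, which removes the stop in hepatocytes, while ASK1f/f littermates lacked Cre and served as controls. Tissue was taken after a 5 h fast. The labels do not give the sex of each mouse.

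Heat shock chaperones bind unfolded protein and let it fold, refold or pass to degradation. HSP70 proteins work in cycles of ATP use that J-domain proteins such as DNAJB1 start and nucleotide exchange factors such as BAG3 and HSP110 end, HSP90 takes over late clients such as kinases and steroid receptors, and small heat shock proteins hold unfolded protein without ATP. In the mitochondrial matrix, HSP60 rings capped by HSP10 fold imported proteins. When unfolded protein builds up, heat shock factor 1 binds repeated nGAAn units and raises many of these genes together. The comparison of ASK1+hep with ASK1f/f livers asks whether their mRNA differed when hepatocytes expressed more ASK1, a kinase of the stress-activated MAP kinase cascade.

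Values are FPKM, in which the length of the gene and a size for each library are divided out, so that levels of different genes can be set side by side. This comparison has limits given below. A trend with gene length remained in single livers, and several of the genes share sequence with other genes. The number of reads behind each value was recovered from the table, and libraries held 14411830 to 16056102 reads (ASK1f/f, n = 5) and 13367742 to 16163378 reads (ASK1+hep, n = 5). The size divided out differed from these totals, at 1.38e+07 against 1.55e+07 in ASK1+hep replicate 3 and 1.67e+07 against 1.57e+07 in ASK1f/f replicate 1. Scaling by all reads, an alternative used below, divides by the totals instead. In the libraries with an ASK1f/f label, replicates 1 to 5, the ASK1 gene Map3k5 was at 6.74, 6.88, 5.77, 4.71 and 19.8 FPKM, and in those with an ASK1+hep label at 16.4, 11.1, 7.68, 12.4 and 15.2 FPKM. The library labelled ASK1f/f replicate 5 thus held the highest Map3k5 level, against its label, and log2 fold changes without it are given below. In ASK1+hep replicate 3, genes under 1500 bases stood high and genes over 5000 bases low. The difference between the median log2 deviations of these short and long genes was 0.473 there, against -0.240 to 0.178 in the other 9 livers. Defining hepatocyte markers were present in all livers, with a summed level of 29689 to 40970 FPKM (ASK1f/f) and 34628 to 44381 FPKM (ASK1+hep). In whole liver, fewer cells of a type and less RNA per cell cannot be told apart.

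The chaperone mRNAs spanned a wide range of levels. Hspa8, the constitutive cytosolic HSP70, was the highest at 223 ± 54.3 FPKM (SD, n = 10 livers), followed by Hspd1 at 163 ± 24.8 FPKM and Hspe1 at 103 ± 13.7 FPKM. Each of these stood above the next in 9 of 10 livers, while the ranges overlapped. Hspb1 (57.6 ± 39.97 FPKM) and Hsp90aa1 (48.5 ± 12.8 FPKM) could not be ordered, since Hspb1 was the higher of them in 5 of 10 livers. Below them, and without overlap with Hsp90aa1, came Bag3 at 13.9 ± 5.38 FPKM. Dnajb1 (6.42 ± 1.02 FPKM) and Hsph1 (5.83 ± 1.09 FPKM) overlapped, with Dnajb1 above Hsph1 in 7 of 10 livers. The heat-inducible HSP70 genes were lowest, Hspa1b at 3.77 ± 1.42 FPKM and Hspa1a at 0.199 ± 0.132 FPKM.

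**Figure D1:**
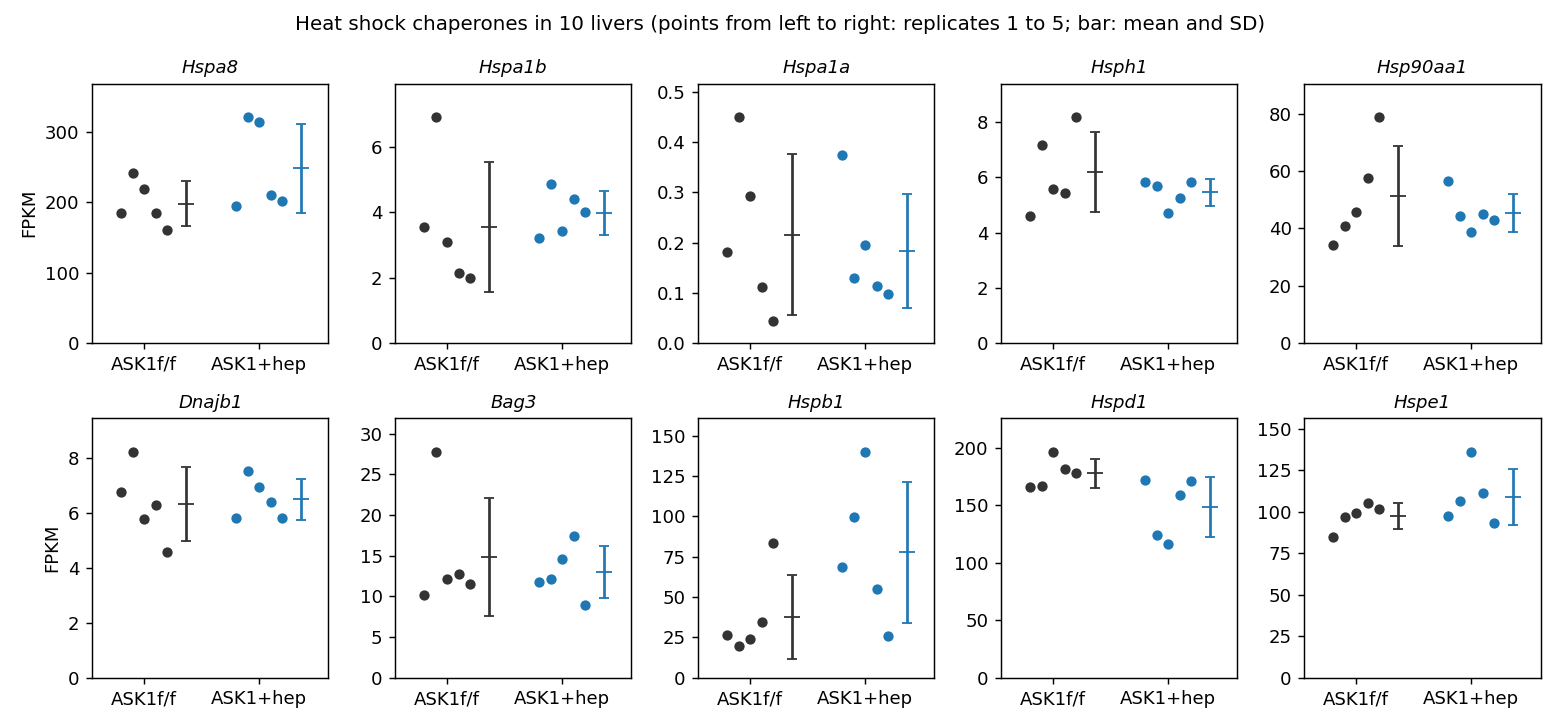
FPKM (vertical axes, linear from 0) of the 10 chaperone genes in each liver, by genotype (horizontal axes). Points are livers, replicates 1 to 5 from left to right, and the bar beside them is the mean with its SD (n = 5); the values of the genotypes overlap for every gene, and single ASK1f/f livers stand high for Bag3 (replicate 2, 27.7 FPKM) and Hspb1 (replicate 5, 83.3 FPKM).

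None of the chaperone genes passed the adjusted threshold between genotypes. Hspa1a fell below the filter on low values, and 0 of the 9 genes tested had an adjusted p at or under 0.05 (limma with Benjamini-Hochberg adjustment over 13306 genes), where 0% of all genes did, and limma-voom on the recovered reads also called 0 of 9. At an unadjusted p under 0.05 only Hspb1 was counted, 1 of 9, against 5.77% of all genes. For 0 of the 10 chaperone genes did the values of the genotypes separate without overlap, compared with 0.864% of all genes tested. Log2 fold changes of the 9 genes lay above 0 for 5 genes (Hspb1, Hspa8, Hspa1b, Hspe1 and Dnajb1) and below 0 for 4 (Hspd1, Hsph1, Hsp90aa1 and Bag3), with 48% of all genes above 0. Their median of 0.0481, which is the Dnajb1 value, compared with -0.00651 over all genes, and with libraries scaled by all reads on genes the medians were -0.0205 and -0.0525.

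**Figure D2:**
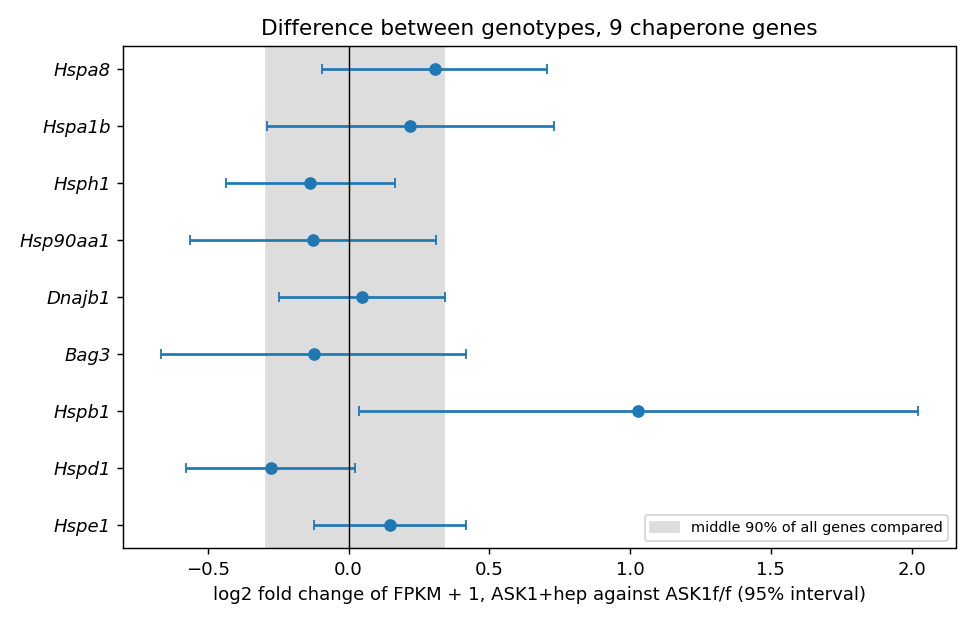
Log2 fold change of FPKM + 1 in ASK1+hep against ASK1f/f livers (horizontal axis) for the 9 chaperone genes above the filter (vertical axis). Points are limma estimates with their 95% intervals (n = 5 per genotype), and the grey band holds the middle 90% of all 13306 genes, from -0.29 to 0.34. Only the Hspb1 interval, 0.04 to 2.02, lies wholly on one side of 0, before adjustment for the number of genes.

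Upstream sequences are shown for Hspe1, whose promoter region is shared with Hspd1, for the near-identical Hspa1a and Hspa1b, and for Hspb1. Among the 9 tested genes, Hspb1 had the widest spread between livers relative to its level. Windows from 250 bases before to 50 bases after each RefSeq start site (GRCm38.p6) were found for 8 of the 10 genes, and not for Hspa8 and Hsp90aa1. They were searched for nGAAn units paired head to head (GAANNTTC) or tail to tail (TTCNNGAA). Both motifs read the same on either strand, and neighbouring matches can overlap by 3 bases. Of 32851 windows in the mouse genome, 7.86% held the first and 8.52% the second. Capitals mark the matches, and each sequence runs 5′ to 3′ on the strand of its gene.
Hspe1, chr1:55088053-55088082, plus strand: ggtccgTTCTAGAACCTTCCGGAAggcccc
Hspb1, chr5:135887782-135887849, plus strand: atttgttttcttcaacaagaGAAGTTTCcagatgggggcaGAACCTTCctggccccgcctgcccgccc
Hspa1b, chr17:34959315-34959362, minus strand: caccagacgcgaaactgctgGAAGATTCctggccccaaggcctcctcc
Hspa1a, chr17:34972233-34972280, minus strand: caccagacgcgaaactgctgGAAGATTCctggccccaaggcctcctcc

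The Hspe1 stretch holds 3 overlapping matches, which start at -89, -84 and -79 from its start site. It also lies upstream of the inner of both Hspd1 start sites, on the opposite strand, and within a GENCODE M21 exon of Hspd1. Hspd1 (chromosome 1, 55077835 to 55088243, minus strand) and Hspe1 (chromosome 1, 55088132 to 55091307, plus strand) overlap by 112 bases at their starts. The stretches printed for Hspa1b and Hspa1a are the same, and over the 250 bases before their start sites these genes had 247 bases in common. Hspb1 held matches at -117 and -97. The Hsph1 windows held matches on both sides of the start site, Bag3 held 1 match, after its start site, and neither Dnajb1 window held one.

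Hspa8, the HSP70 of unstressed cells that also uncoats clathrin vesicles, lies on chromosome 9 from 40800984 to 40810087 on the plus strand. Control livers (ASK1f/f replicates 1 to 5) held 184, 241, 218, 184 and 160.4 FPKM of Hspa8, and ASK1+hep replicates 1 to 5 held 194, 320.4, 314, 210.5 and 202 FPKM. ASK1+hep replicates 2 and 3 exceeded every control liver, and the other 3 lay within the control range. Hspa8 averaged 198 ± 31.9 FPKM and 248 ± 63.4 FPKM (SD, n = 5), with a log2 fold change of 0.31 ± 0.18 (SE), a 95% interval from -0.09 to 0.71 and an adjusted p of 0.812 (limma). The permutation test over livers, exact and two-sided, gave p = 0.167, where the smallest p that 5 against 5 livers allow is 0.00794. With livers of the same replicate number set in pairs, ASK1+hep was higher in 5 of 5 pairs. Pairwise sign flips gave an exact permutation p of 0.0625, the smallest that 5 pairs can give. The log2 fold change was 0.24 without ASK1f/f replicate 5 and ran from 0.21 to 0.39 with each liver left out in turn. Of the 100-base stretches of its longest transcript, 32.1% also occur in transcripts of other genes, among them Gm26825, listed at 0 FPKM in every liver, and Gm8355, at 0.453 to 1.55 FPKM.

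The heat-inducible HSP70 genes are single-exon neighbours on chromosome 17, Hspa1b from 34956436 to 34959238 and Hspa1a from 34969190 to 34972156, both on the minus strand. Hspa1b was at 3.55, 6.91, 3.10, 2.16 and 1.99 FPKM in ASK1f/f controls and at 3.22, 4.86, 3.44, 4.42 and 4.01 FPKM in ASK1+hep mice. ASK1f/f replicate 2 was the highest liver, and all ASK1+hep livers lay inside the control range. The log2 fold change was 0.22 ± 0.23 (SE, interval -0.29 to 0.73) with an adjusted p of 0.842 (limma), and it was 0.44 without ASK1f/f replicate 2, 0.11 without replicate 4 and 0.09 without replicate 5. Hspa1a was carried by 2 to 21 reads per liver. It was at 0.182, 0.449, 0.293, 0.111 and 0.0438 FPKM in ASK1f/f controls and at 0.376, 0.130, 0.196, 0.114 and 0.0979 FPKM in ASK1+hep mice, and its exact permutation p was 0.786. Counting error alone came to 42.0% of an Hspa1a value, beside coefficients of variation of 74.1% (ASK1f/f) and 62.4% (ASK1+hep). The split of reads between these genes is uncertain, because 47.1% of the 100-base stretches of the Hspa1a transcript occur in Hspa1b as well. With both genes added, levels were 3.76 ± 2.14 FPKM in ASK1f/f controls and 4.17 ± 0.594 FPKM in ASK1+hep mice (SD, n = 5), with an adjusted p of 0.847 (limma).

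Hsph1, the HSP110 that releases nucleotide from HSP70 (chromosome 5, 149614287 to 149636376, minus strand), was at 4.58, 7.18, 5.58, 5.45 and 8.17 FPKM in ASK1f/f livers. In ASK1+hep livers it was at 5.84, 5.68, 4.70, 5.24 and 5.84 FPKM. ASK1f/f replicates 2 and 5 exceeded every ASK1+hep liver, and the lowest liver was a control too. The log2 fold change was -0.14 ± 0.14 (SE, interval -0.44 to 0.17), with an adjusted p of 0.842 (limma). It was -0.04 without ASK1f/f replicate 5, -0.08 without replicate 2 and -0.22 without replicate 1.

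Hsp90aa1, the stress-inducible HSP90 (chromosome 12, 110690605 to 110702728, minus strand), was at 34.3, 41.0, 45.8, 57.5 and 78.8 FPKM in ASK1f/f livers and at 56.5, 44.3, 38.7, 45.03 and 43.1 FPKM in ASK1+hep livers. The control livers enclosed the whole ASK1+hep range, with ASK1f/f replicate 5 the highest and replicate 1 the lowest. The log2 fold change of -0.13 ± 0.20 (SE, interval -0.56 to 0.31; adjusted p = 0.89, limma) turned to 0.04 without ASK1f/f replicate 5, the control library with high Map3k5, and was -0.25 without replicate 1. Hsp90ab1, the constitutive HSP90, was at 263 ± 32.5 FPKM in ASK1f/f controls and 282 ± 25.7 FPKM in ASK1+hep mice (SD, n = 5). The ratio of Hsp90aa1 to Hsp90ab1 was 0.193 ± 0.0448 and 0.163 ± 0.0262 (exact permutation p = 0.262; adjusted over 4 ratios, 0.349). Of the 100-base stretches of Hsp90aa1, 47.5% occur in other transcripts, mainly in Gm12346, a pseudogene at 0.483 to 1.87 FPKM.

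Dnajb1, the J-domain protein that loads clients onto HSP70 (chromosome 8, 83608193 to 83612653, plus strand), was at 6.77, 8.23, 5.80, 6.30 and 4.58 FPKM in ASK1f/f livers and at 5.82, 7.56, 6.95, 6.40 and 5.82 FPKM in ASK1+hep livers. Both the highest and the lowest value came from control livers. Its log2 fold change of 0.05 ± 0.14 (SE, interval -0.25 to 0.34; adjusted p = 0.945, limma) turned to -0.05 without ASK1f/f replicate 5, to -0.00025 without ASK1+hep replicate 2 and to -0.02 with scaling by all reads, which put the median of all genes at -0.0525. Bag3, the exchange factor that links HSP70 to selective autophagy (chromosome 7, 128523616 to 128546981, plus strand), was at 10.1, 27.7, 12.2, 12.8 and 11.5 FPKM in ASK1f/f controls and at 11.7, 12.1, 14.6, 17.4 and 8.93 FPKM in ASK1+hep mice. Apart from ASK1f/f replicate 2, control livers lay between 10.1 and 12.8 FPKM, inside the ASK1+hep range. The Bag3 log2 fold change was -0.12 ± 0.25 (SE, interval -0.67 to 0.42; adjusted p = 0.913, limma), 0.11 without that liver, and -0.19 without ASK1f/f replicate 5.

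Hspb1, the small heat shock protein HSP25 of mice, also binds actin filaments. Relative to its level, Hspb1 varied most between livers among the 9 tested genes. It lies on chromosome 5 from 135887919 to 135889563 on the plus strand. Its levels were 26.4, 19.5, 23.8, 34.6 and 83.3 FPKM in ASK1f/f replicates 1 to 5, and 68.6, 99.5, 139.7, 54.8 and 26.0 FPKM in ASK1+hep replicates 1 to 5. The highest Hspb1 liver held 7.15 times the level of the lowest. The groups overlapped, since ASK1f/f replicate 5 stood among the ASK1+hep livers and ASK1+hep replicate 5 among the controls.

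Means of Hspb1 were 37.5 ± 26.2 FPKM in ASK1f/f controls and 77.7 ± 43.6 FPKM in ASK1+hep mice (SD, n = 5), a ratio of 2.07. The log2 fold change was 1.03 ± 0.45 (SE, interval 0.04 to 2.02), with an unadjusted p of 0.0433 and an adjusted p of 0.812 (limma), and its exact permutation p (two-sided) was 0.111. The unadjusted p was not under 0.05 with scaling by all reads (0.0516) or without a filter (0.0597), nor in 8 of the 10 comparisons with 1 liver left out. Without ASK1f/f replicate 5 the log2 fold change was 1.36 and without ASK1+hep replicate 3 it was 0.77 (unadjusted p = 0.107, limma). Reads counted for Hspb1 ran from 317 to 1984 per liver, and counting error came to 4.08%, far below the coefficients of variation of 69.8% and 56.1%. Of its 100-base stretches 42.7% occur in Hsp25-ps1, a pseudogene at 0 to 0.403 FPKM, and the deposited values do not show how reads with several matches were treated. Hspb1 is also made by biliary, vascular and stellate cells. Summed cholangiocyte markers were at 13.5 to 32.7 FPKM in ASK1f/f and 15.6 to 28.3 FPKM in ASK1+hep livers, stellate cell markers at 20.5 to 31.6 FPKM and 16.1 to 29.7 FPKM, and sinusoidal endothelial markers at 31.5 to 46.3 FPKM and 26.7 to 46.6 FPKM, so the summed ranges overlapped for each. No marker of these lists was at 0 in every liver, and their part in the Hspb1 values was not tested.

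Hspd1 and Hspe1, whose products form the mitochondrial chaperonin and its lid, stood on opposite sides of the control range in 3 ASK1+hep livers. Hspd1 was at 166, 167, 196, 182 and 178 FPKM in ASK1f/f controls and at 171.5, 124, 116, 159 and 171 FPKM in ASK1+hep mice. ASK1+hep replicates 2, 3 and 4 lay below every control liver, and replicates 1 and 5 within the control range. Means of Hspd1 were 178 ± 12.3 FPKM and 148 ± 26.3 FPKM (SD, n = 5), with a log2 fold change of -0.28 ± 0.14 (SE, interval -0.58 to 0.02), an unadjusted p of 0.0683 and an adjusted p of 0.812 (limma). The log2 fold change was -0.28 without ASK1f/f replicate 5 as well. Taken alone, Hspd1 had an exact permutation p (two-sided) of 0.0476, one of 10 such values and not adjusted.

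Hspe1 was at 84.9, 96.6, 99.3, 105.6 and 102 FPKM in ASK1f/f controls and at 97.2, 107, 136, 111.5 and 93.4 FPKM in ASK1+hep mice. The same ASK1+hep replicates 2, 3 and 4 that were low for Hspd1 lay above every control liver for Hspe1. Its log2 fold change was 0.15 ± 0.12 (SE, interval -0.12 to 0.42), with an adjusted p of 0.817 (limma) and an exact permutation p of 0.23. The Hspe1 log2 fold change was 0.07 without ASK1+hep replicate 3 and 0.16 without ASK1f/f replicate 5.

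Within each liver, the ratio of Hspe1 to Hspd1 FPKM was 0.512, 0.578, 0.506, 0.581 and 0.574 in ASK1f/f replicates 1 to 5. It was 0.567, 0.862, 1.17, 0.704 and 0.547 in ASK1+hep replicates 1 to 5. Control livers thus kept the ratio within a narrow range, from which ASK1+hep replicates 2, 3 and 4 departed upwards while replicates 1 and 5 did not. The mean ratio was 0.550 ± 0.0377 in ASK1f/f and 0.770 ± 0.256 in ASK1+hep livers (SD, n = 5; exact permutation p = 0.0794; adjusted over 4 ratios, 0.159). The log2 difference of the ratio was 0.43, and 0.26 without ASK1+hep replicate 3.

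The excess of short over long genes in a liver moved with this ratio. Hspe1 has 1474 bases and Hspd1 2642 bases in the table, so Hspe1 itself is among the 1579 genes counted as short, as is Hspb1 with 1031 bases. The excess was -0.126, 0.138, 0.473, 0.178 and -0.240 in ASK1+hep replicates 1 to 5, and -0.124 to -0.0347 in ASK1f/f livers. Over 10 livers the log2 ratio and the excess had r = 0.92 (adjusted permutation p = 0.0088 over 10 relations) and rho = 0.70 (adjusted p = 0.102). Within genotypes r was 0.92, which pools both groups, each centred on its mean, and does not show the relation in each genotype alone. The ASK1f/f livers covered only the narrow range of excess given above and ratios from 0.506 to 0.581. With ASK1+hep replicates 3 and 4 left out, r was 0.76. For Hspe1 alone r was 0.90 (adjusted p = 0.0088) and rho 0.87 (adjusted p = 0.0222), with r = 0.61 without these livers. Hspd1 (r = -0.79, adjusted p = 0.0387; rho = -0.44) and Hspa8 (r = 0.74, adjusted p = 0.0397; rho = 0.62) also passed by r in this family of permutation tests, but not by rho, whose adjusted p was 0.332 and 0.152. Leaving out the same livers gave r = -0.61 for Hspd1 and r = 0.74 for Hspa8. Hspb1 had r = 0.65 (adjusted permutation p = 0.0656) and rho = 0.41 (adjusted p = 0.332), with r = 0.39 without these livers. With a smooth trend on gene length and GC content removed from each liver, the difference between the Hspe1 and Hspd1 log2 fold changes was 0.37, against 0.42 before, and the Hspb1 log2 fold change was 0.86, against 1.03. What sets this excess was not tested.

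**Figure D3:**
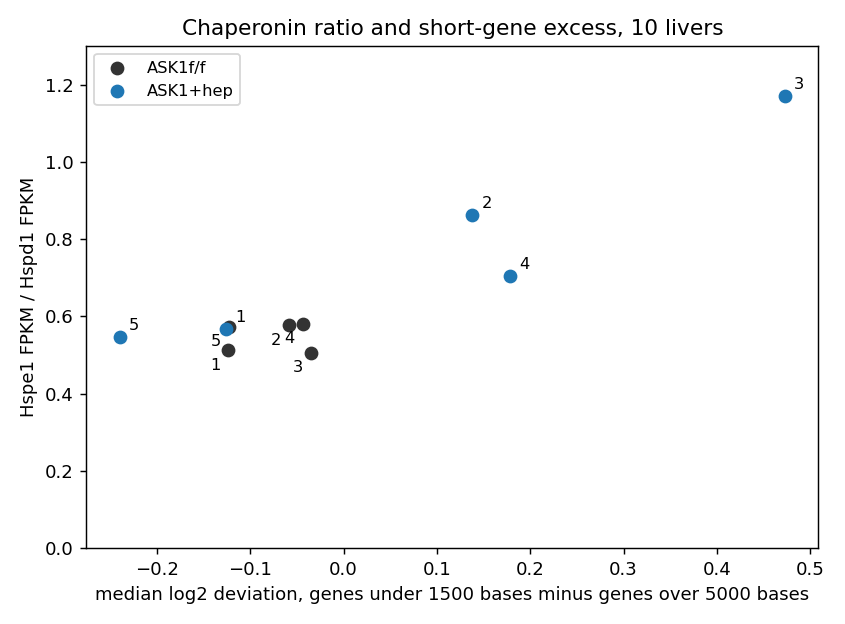
Ratio of Hspe1 to Hspd1 FPKM (vertical axis, linear) against the median log2 deviation of genes under 1500 bases minus that of genes over 5000 bases (horizontal axis), 1 point per liver with its replicate number, black for ASK1f/f and blue for ASK1+hep. The 5 ASK1f/f livers lie between 0.506 and 0.581, and ASK1+hep replicates 2, 3 and 4 lie higher on both axes than all other livers.

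Reads from a processed pseudogene of Hspd1, Hspd1-ps3, which shares 25.8% of the 100-base stretches of Hspd1, were counted separately. Hspd1-ps3 was at 5.46, 4.83, 6.44, 4.20 and 4.08 FPKM in ASK1f/f controls and at 6.71, 2.25, 1.26, 3.50 and 13.9 FPKM in ASK1+hep mice. Its lowest values fell in the same ASK1+hep replicates 2, 3 and 4 as those of Hspd1. Hspe1 shared 0.3% of its stretches with another gene.

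Other mitochondrial chaperones did not pass the test. Hspa9, the HSP70 of the matrix, was at 123 ± 5.83 FPKM in ASK1f/f controls and 120.3 ± 17.8 FPKM in ASK1+hep mice, and Trap1, the matrix HSP90, at 72.7 ± 1.45 FPKM and 69.9 ± 4.88 FPKM (SD, n = 5; adjusted p = 0.936 and 0.886, limma). The ratio of Hspa9 to Hspd1 was 0.675 to 0.714 in ASK1f/f livers, and 0.682, 0.889, 0.885, 0.772 and 0.875 in ASK1+hep livers. In ASK1+hep, 4 livers lay above every control liver and replicate 1 did not (exact permutation p = 0.0397; adjusted over 4 ratios, 0.159). Of 15 mitochondrial chaperones and proteases tested, Hspa9 and Trap1 among them, 6 had a log2 fold change above 0 and 9 below. The median of these 15 was -0.05, and 0 passed the adjusted threshold or an unadjusted p under 0.05.

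The 10 genes did not rise and fall as a block across livers. ASK1f/f replicate 2 had the highest Bag3, Hspa1b, Hspa1a and Dnajb1 levels of all livers, while its Hspb1 was the lowest. ASK1f/f replicate 5 had the highest Hsp90aa1 and Hsph1 but the lowest Hspa8, Hspa1b and Dnajb1 levels. Among the 36 pairs of the 9 tested genes, 17 had a correlation above 0 over 10 livers, with a median r of -0.05. By permutation tests, 9 pairs had an unadjusted p under 0.05 for r and 7 for rho, and 0 pairs passed after adjustment over 36 pairs. Hspa1b and Dnajb1 had the lowest p (r = 0.80, rho = 0.79, adjusted permutation p = 0.117 and 0.223), with r = 0.80 within genotypes and r = 0.42 without ASK1f/f replicates 2 and 5. Hspa8 and Hspd1 had the lowest r (r = -0.84, rho = -0.54, adjusted permutation p = 0.117 and 0.343), which rested on ASK1+hep replicates 2 and 3, since r was -0.11 without them.

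**Figure D4:**
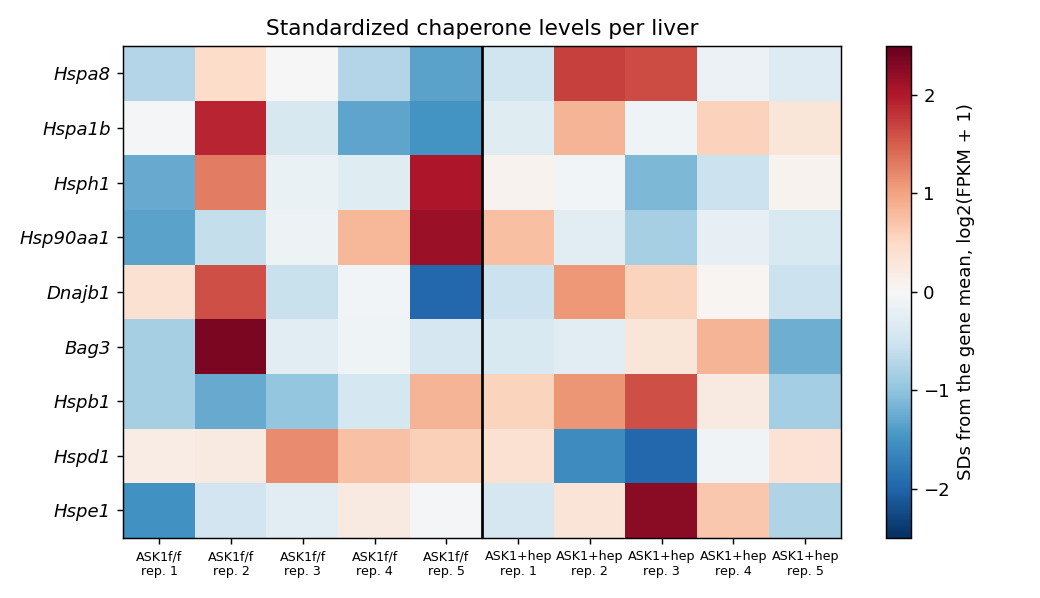
Log2(FPKM + 1) of the 9 tested chaperone genes (rows) in each liver (columns, ASK1f/f left and ASK1+hep right of the line), as SDs from the mean of the gene over all 10 livers. Red is above and blue below the mean; no liver is of one colour throughout, and ASK1+hep replicates 2 and 3 pair high Hspa8 (1.70 and 1.62 SDs) with low Hspd1 (-1.58 and -1.96 SDs).

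The genes most like the mean pattern of the chaperones were sought among all other tested genes by Pearson's r over the 10 livers. To the mean standardized level of the 7 cytosolic chaperones tested, the nearest were Myd88 (r = 0.94), Pnrc1 (r = 0.94), Etv6 (r = 0.91), Lrfn3 (r = 0.90) and Trim39 (r = 0.90). To the mean of Hspd1 and Hspe1 they were Gimap5 (r = 0.89), Tor4a (r = 0.88), Cd300lb, Aldh1a1 and Farsb (each r = 0.87). These are the highest of all values computed and carry no test. Hspd1 and Hspe1 had r = -0.66 with each other, and r = 0.06 without ASK1+hep replicates 2 and 3. The cytosolic genes did not move as a block either. The genes named here are thus near an average of unlike patterns, not near each chaperone gene.

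Chaperones outside the 10 genes were read from 8 lists of cytosolic, HSP90, small heat shock protein, chaperonin, mitochondrial and regulator genes. They held 85 genes, of which 79 passed the filter. Of these, 0 passed the adjusted threshold, 0 were higher and 1 was lower at an unadjusted p under 0.05, and 57.0% had a log2 fold change above 0 (41.8% with scaling by all reads), with a median of 0.04. The gene counted as lower was Hspa12b, a distant HSP70 relative of endothelium, at 0.353 ± 0.0602 FPKM in ASK1f/f controls and 0.242 ± 0.047 FPKM in ASK1+hep mice (SD, n = 5; adjusted p = 0.812, limma). Cytosolic HSP70 and HSP110 relatives (6 tested) had 0 log2 fold changes above 0 and a median of -0.08. Of 11 J-domain genes 5 lay above 0, with a median of -0.005, and of 9 exchange and degradation cochaperones 6 lay above 0, with a median of 0.05. HSP90 and its cochaperones had 10 of 16 above 0 and a median of 0.05. These J-domain, exchange and HSP90 lists gave medians of -0.07, -0.02 and -0.03 with scaling by all reads, beside -0.0525 for all genes. The cytosolic chaperonin TRiC and prefoldin had 11 of 14 above 0 and a median of 0.09. With scaling by all reads these were 7 of 14 and 0.01, beside the median of -0.0525 for all genes. The highest log2 fold changes were those of the prefoldin genes Pfdn6 (0.39), Pfdn1 (0.33), Pfdn2 (0.32) and Pfdn5 (0.32). Each was highest in ASK1+hep replicate 3, the liver with the largest excess of short genes, and a relation to that excess was not tested. Other small heat shock protein genes had 3 of 4 above 0, led by Hspb6, a small heat shock protein of muscle, at 0.33 ± 0.18 (SE; adjusted p = 0.812, limma).

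The transcription factors that drive these genes were low. Hsf1, the main heat shock factor, was at 2.53 ± 0.166 FPKM in ASK1f/f controls and 2.86 ± 0.825 FPKM in ASK1+hep mice (SD, n = 5; adjusted p = 0.868, limma). In ASK1+hep livers Hsf1 was at 2.27, 3.94, 3.55, 2.31 and 2.21 FPKM, so that replicates 2 and 3 exceeded every control liver and the other 3 lay below all of them. Heat shock factors and their binding protein had 4 of 4 log2 fold changes above 0 with a median of 0.12, and none passed the adjusted threshold or an unadjusted p under 0.05. Cirbp and Rbm3, RNA-binding proteins that rise when cells cool, were at 7.87 ± 1.11 and 4.79 ± 0.389 FPKM in ASK1f/f controls and at 7.67 ± 1.20 and 4.04 ± 0.738 FPKM in ASK1+hep mice (SD, n = 5; adjusted p = 0.959 and 0.812, limma).

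Genes that mark acute stress at dissection or the time of day were read beside the chaperones. Of 7 immediate early genes tested, Jun was counted as higher at an unadjusted p under 0.05. Jun, an AP-1 subunit downstream of the ASK1 cascade, was at 3.53, 11.3, 4.09, 3.52 and 3.87 FPKM in ASK1f/f controls and at 6.97, 9.87, 19.6, 31.7 and 7.76 FPKM in ASK1+hep mice (adjusted p = 0.812, limma). The control liver with the highest Jun, replicate 2, was the one with the highest Bag3 and Hspa1b. Of 12 clock genes tested, Nr1d1 was higher and Per2 and Cry1 were lower at an unadjusted p under 0.05. Nr1d1 was at 15.2 ± 3.80 and 24.0 ± 6.89 FPKM, Per2 at 7.15 ± 1.33 and 4.78 ± 1.10 FPKM, and Cry1 at 1.85 ± 0.439 and 1.31 ± 0.342 FPKM in ASK1f/f and ASK1+hep livers (SD, n = 5; adjusted p = 0.812 for each, limma). The part of dissection stress and time of day in the chaperone values was not tested.

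Markers of other cells gave the same number of adjusted calls, 0. Macrophage markers had 0 of 7 log2 fold changes above 0, with summed levels of 62.2 to 101 FPKM in ASK1f/f and 45.9 to 96.4 FPKM in ASK1+hep livers. Erythroid markers had 4 of 5 above 0, with summed levels of 333 to 490.3 FPKM and 324 to 1053 FPKM, and Hba-a2 and Hbb-bt, alpha and beta globin genes, were counted as higher at an unadjusted p under 0.05. Lymphocyte markers summed to 1.53 to 3.49 FPKM and 1.01 to 4.87 FPKM, and neutrophil markers to 2.08 to 17.1 FPKM and 2.61 to 8.96 FPKM. Hepatocyte markers had 3 of 7 log2 fold changes above 0 and 4 below, with a median of -0.009. Of these markers, Cyp3a11 and Ttr were counted as higher at an unadjusted p under 0.05. Their part in the chaperone values was not tested.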

How the data were processed

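Liver RNA of 10 mice was sequenced after poly-A selection. The authors cleaned reads (fastp is listed in their processing notes), mapped them with Hisat2, counted them with FeatureCounts and deposited FPKM per gene, not counts. Genome build, annotation and treatment of strand and of reads with several matches are not given in the sources used here. For 98.3% of 54409 genes, coordinates matched GENCODE M21 (GRCm38). FPKM times gene length gave whole multiples of 1 step per library (largest distance from whole 0.000187 reads), hence reads and depth. Genes with fewer than 15 reads over all livers, or with 10 or more scaled reads in fewer than 5 livers, were left out. Log2(FPKM + 1), which understates changes of low genes, was compared with limma 3.58.1 (R 4.3.3) with trended prior variance, and p-values were adjusted by Benjamini-Hochberg. Single values had exact permutation tests, correlations 100000 permutations. The comparison was tested on simulated data. No libraries were duplicates (lowest chi-square per degree of freedom 19.1).

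Groups came from the sample labels, and each liver is a separate animal. All 10 chaperones are named, and from each further list up to 3 genes with the lowest p among those at an unadjusted p under 0.05, plus Hsf1, Hsp90ab1, Hspa9, Trap1, Cirbp, Rbm3 and Map3k5. Hspb6, the prefoldin genes, Spp1, Dcn, Gm8355, Gm12346, Hsp25-ps1 and Hspd1-ps3, and the ratios, were chosen after their values were seen. Chaperones and lists were chosen with earlier results of these data known. Alternatives were no filter, 10 reads in every liver, a pseudocount of 0.1, limma-voom with and without quality weights, scaling by all reads, a replicate block, each liver left out, and, chosen after seeing the data, a correction for gene length and GC content by splines with 5 degrees of freedom each (99.93% of genes had a GC value).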

Additional observations from a re-analysis of the deposited data

Results flagged for a closer look

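In groups of 5 livers, the highest or lowest value was set apart if more than 0.71 of the whole range lay between it and its neighbour (Dixon's 95% critical value). For normally distributed values chance sets apart about 1 in 20 groups, and 3 of 34 were. Gaps were taken on FPKM and not on the log2(FPKM + 1) of the comparison, and which values are set apart can depend on this scale. Hspb1 stood at 83.3 FPKM in ASK1f/f replicate 5, against 19.5 to 34.6 FPKM in the other control livers. Bag3 stood at 27.7 FPKM in ASK1f/f replicate 2, against 10.1 to 12.8 FPKM in the others. The library with the label ASK1f/f replicate 5 held 19.8 FPKM of Map3k5, against 4.71 to 6.88 FPKM in the others. The control library with high Hspb1 was thus also the one with high Map3k5. In ASK1+hep replicates 1 to 5, Map3k5 was at 16.4, 11.1, 7.68, 12.4 and 15.2 FPKM and Hspb1 at 68.6, 99.5, 139.7, 54.8 and 26.0 FPKM. The highest Hspb1 there fell in the liver with the lowest Map3k5. A relation between these genes was not tested.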

How the results depend on the processing

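Of the 82 values of chaperone genes recomputed under alternatives that kept all livers, 1 changed direction (Dnajb1, -0.0205 with scaling by all reads, where the median of all genes was -0.0525), and 0 passed the adjusted threshold (lowest adjusted p over all alternatives 0.383). No filter, 10 reads in every liver, the replicate block and pairwise sign flips leave a log2 fold change as it was. Their values are among the 82 but could not change direction, and the sign flips gave no adjusted p. Over 90 values with 1 liver left out, 4 changed direction. Hsp90aa1 ran from -0.254 to 0.0400 (without ASK1f/f replicate 5), Bag3 from -0.231 to 0.113 (without ASK1f/f replicate 2), and Dnajb1 from -0.0455 (without ASK1f/f replicate 5; -0.00025 without ASK1+hep replicate 2) to 0.136. The median of the chaperone genes was -0.0205 with scaling by all reads and ran from -0.000251 to 0.136 with 1 liver left out. The number of chaperone genes at an unadjusted p under 0.05 was 1, became 0 without a filter and 2 (Hspb1 and Hspd1) with the length and GC correction, and ran from 0 to 2 with 1 liver left out (2 without ASK1+hep replicate 5). That 1 gene was Hspd1 rather than Hspb1 with scaling by all reads or without ASK1+hep replicate 1, and Hspa1b without ASK1f/f replicate 2. Over all genes this number was 768, became 1222 without a filter (26389 genes tested), and ran from 557 to 1724 (1724 without ASK1+hep replicate 5, 1178 without replicate 1). With scaling by all reads, 31.4% of those genes were higher in ASK1+hep livers, against 52.9%. The adjusted threshold was passed by 1 gene, Fgf21, with quality weights or without ASK1+hep replicate 5, and by 0 to 1 with 1 liver left out. The cause of these changes was not tested. Between the groups, livers with the same replicate number correlated by 0.0212 to 0.174. The mean was 0.107, against -0.0275 for livers with different numbers, and 6 of 10 livers correlated best with their own number. The labels do not say whether same-numbered livers are pairs, and the main test did not pair them. With the replicate block, 880 genes and 1 chaperone gene, Hspa8 and not Hspb1, were at an unadjusted p under 0.05, and Hspa8 had an adjusted p of 0.727 (limma). Pairwise sign flips gave an exact permutation p of 0.0625 for Hspa8, the smallest that 5 pairs can give. Reads were fewest for Hspa1a (2 to 21 per liver).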
